A study of Mus musculus with 11 samples.

Results

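The interleukin-1 (IL-1) and interleukin-6 (IL-6) cytokine axis was followed through 10 genes, which were chosen by name: the IL-1 ligand genes Il1a and Il1b, the IL-1 receptor antagonist gene Il1rn, the IL-1 receptor genes Il1r1 and Il1r2, Il6 and its receptor gene Il6ra, the oncostatin M gene Osm and its receptor gene Osmr, and the feedback inhibitor gene Socs3. They are 10 of the 52636 genes listed for each liver, and all 10 were among the 17243 with enough reads to be tested. RNA was sequenced from whole fetal livers of untreated mouse embryos at E15.5: 3 WT, 2 with the label TNFR1KO (Tnfr1-/- below), 3 labelled Casp8 MLKL dKO (Casp8-/- Mlkl-/-) and 3 labelled Casp8 TNFR1 dKO (Casp8-/- Tnfr1-/-). TNFR1 is a receptor for tumor necrosis factor, caspase-8 restrains the lytic cell death called necroptosis, and MLKL carries out its last step, so that both double mutants lack caspase-8 and Casp8-/- Mlkl-/- livers lack the end of that pathway as well. The comparisons ask how loss of caspase-8 together with TNFR1 changed the liver's RNA relative to each of the other genotypes. The mice were kept on a C57BL/6N background, and the alleles are germline nulls that every cell of the embryo carries. The labels name neither embryos nor litters, so p-values measure the spread between these livers.

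IL-1α and IL-1β are alarm cytokines that signal through the receptor IL-1R1, the adaptor MyD88 and IRAK kinases. Il1rn encodes a secreted antagonist that occupies IL-1R1 without signalling, and Il1r2 encodes a decoy receptor that binds IL-1 but lacks a signalling domain. Cytokines of the IL-6 family, including oncostatin M, signal through the shared receptor subunit gp130, JAK kinases and STAT3. STAT3 drives acute phase genes in hepatocytes and Socs3, whose product shuts the receptor down. At this stage the liver is also the main site of blood formation, so whole-liver RNA comes from hepatocytes, red cell precursors, macrophages, granulocytes and other cells together. In such RNA, fewer cells of a type and less RNA per cell cannot be told apart.

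The libraries held 23129212 to 35819339 reads counted on genes. Values below are CPM, read counts scaled for library size after TMM normalization, which allows for genes that take a large share of the reads. Casp8 stood at 7.82 to 10.2 CPM in Casp8-/- Mlkl-/- livers and at 13.1, 11.5 and 21.9 CPM in Casp8-/- Tnfr1-/- replicates 1, 2 and 3. The livers with intact Casp8 held 27.7 to 33.9 CPM. Mlkl stood at 0.730 to 1.22 CPM in Casp8-/- Mlkl-/- livers against 3.68 to 4.46 CPM in WT and Tnfr1-/- livers. Tnfrsf1a, the gene of TNFR1, was counted at 49.8 and 50.5 CPM in Tnfr1-/- livers, at 47.1 to 53.4 CPM in WT livers, and at 76.9, 76.0 and 425 CPM in the Casp8-/- Tnfr1-/- livers, above all WT livers. A count over the whole gene does not check that allele. Hepatocyte markers, with Alb and Afp among them, summed to 53807 CPM or more in every liver, so the labelled tissue is present throughout. Casp8-/- Tnfr1-/- replicate 3 stood apart: its log2 CPM correlated with the other livers at r = 0.840 to 0.891, where no pair of the others fell under 0.949. It alone held much Xist RNA, 3409 CPM against 0.570 or less elsewhere, and much muscle RNA, with the 10 striated muscle markers at 1594 CPM in sum against 14.8 to 36.7 CPM elsewhere. Casp8-/- Mlkl-/- replicate 1 had the highest summed hepatocyte markers, 233429 CPM against at most 105529 elsewhere. Many results of the 10 genes are given with and without 1 or both of these libraries. Fold changes of single genes outside the 10 are from all livers only.

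Against WT, 6 of the 10 genes rose in Casp8-/- Tnfr1-/- livers and none fell: Il1b, Il1rn, Il1r1, Il1r2, Osmr and Socs3. Of all genes tested, 5.1% were called higher in this comparison and 0.702% lower. The median log2 fold change was 2.44 over the 10 genes and -0.00 over all genes. Against Tnfr1-/- livers 3 of the 10 rose (Il1b, Il1rn and Il1r1), beside 2.05% of all genes called higher and 0.122% called lower. In the comparison with Casp8-/- Mlkl-/- livers 2 rose (Il1rn and Il1r2), beside 1.54% called higher and 0.116% lower. The 3 comparisons share the same Casp8-/- Tnfr1-/- livers. Il1rn was the only one of the 10 that passed the threshold in each of them. A gene is called higher or lower here at an adjusted p under 0.05 in the quasi-likelihood test of edgeR, adjusted over the 17243 genes by the Benjamini-Hochberg method, and every adjusted p below is of that kind unless another tool is named. Without Casp8-/- Tnfr1-/- replicate 3 the counts were 8 against WT, 8 against Tnfr1-/- and 3 against Casp8-/- Mlkl-/- livers, beside 7.28%, 4.46% and 2.83% of all genes. Without that liver and Casp8-/- Mlkl-/- replicate 1 they were 9, 8 and 8, beside 17.8%, 13.9% and 12% of all genes.

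**Figure D1:**
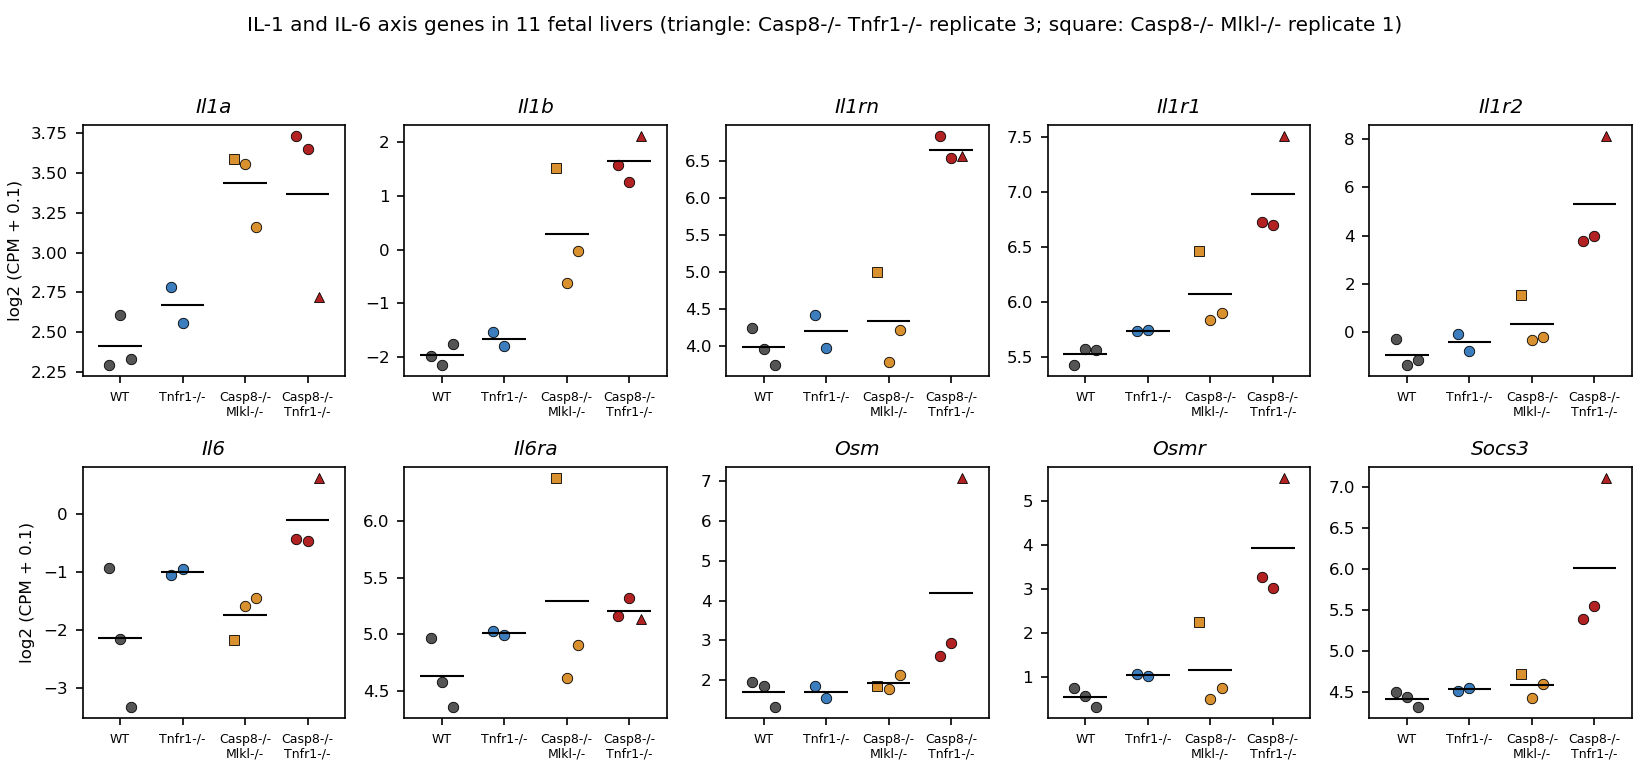
Level of each of the 10 genes in each of the 11 livers, as log2 of CPM plus 0.1 on the vertical axis, with a point per liver and a line at the mean of the group. Every Casp8-/- Tnfr1-/- liver lies above all 8 other livers for 7 of the 10 genes, while Il1a, Il1b and Il6ra overlap with Casp8-/- Mlkl-/- livers.

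In 7 of the 10 genes each of the 3 Casp8-/- Tnfr1-/- livers lay above all 8 other livers, a pattern found in 7.43% of all genes tested. These were Il1rn, Il1r1, Il1r2, Il6, Osm, Osmr and Socs3, so that Il6 and Osm were separated by rank without passing the threshold. None of the 10 lay below all other livers in the 3 Casp8-/- Tnfr1-/- livers, as 3.32% of all genes did.

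The IL-1 ligand genes behaved unlike each other. Il1b was close to undetected in livers with intact Casp8, with 4, 3 and 5 reads in WT (0.154, 0.126 and 0.197 CPM) and 9 and 5 reads in Tnfr1-/- (0.246 and 0.190 CPM). It reached 2.87, 2.31 and 4.22 CPM in Casp8-/- Tnfr1-/- livers, from 94, 67 and 74 reads. All 3 livers lay above all WT and Tnfr1-/- livers. The log2 fold change was 4.25 ± 0.65 (SE) against WT, adjusted p = 0.00586, and 3.80 ± 0.73 against Tnfr1-/-, adjusted p = 0.0283. The fold against WT rests on 12 reads in the 3 WT livers together. The call against WT held when any 1 of the 11 livers was left out. The call against Tnfr1-/- was lost without any 1 of the 3 WT livers, with adjusted p = 0.0551, 0.0554 and 0.052, and without Tnfr1-/- replicate 1 or 2, with adjusted p = 0.356 and 0.369. Il1b also stood above all WT and Tnfr1-/- livers in the Casp8-/- Mlkl-/- group, at 2.76, 0.552 and 0.879 CPM, and the 2 double mutants overlapped (log2 fold change 1.17 ± 0.54, adjusted p = 0.337). Without Casp8-/- Mlkl-/- replicate 1, the highest of that group, this difference was 2.13 with adjusted p = 0.0266.

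Il1a was the more abundant of the ligand transcripts in every liver, although the excess shrank. Its RPKM, which corrects for transcript length, exceeded that of Il1b by a factor of 17.2 to 32.7 in WT livers. The factor was 18.9 and 20.9 with Tnfr1 alone deleted, fell between 2.98 and 14.5 in the Casp8-/- Mlkl-/- group, and lay between 1.06 and 3.71 in the Casp8-/- Tnfr1-/- group. Il1a measured 4.80, 5.99 and 4.93 CPM in WT, 6.78 and 5.77 CPM in Tnfr1-/-, 12.0, 11.7 and 8.83 CPM in Casp8-/- Mlkl-/-, and 13.2, 12.5 and 6.50 CPM in Casp8-/- Tnfr1-/- livers. Replicate 3 of the last group was its lowest and fell within the Tnfr1-/- range. Against WT the log2 fold change was 1.03 ± 0.27 with adjusted p = 0.0558, which misses the threshold, and without replicate 3 it was 1.30 with adjusted p = 0.00206. The 2 double mutants gave nearly the same level, with a log2 difference of -0.01 ± 0.27 whose sign depended on the setting. Il1a overlaps Gm14023 and Il1b overlaps the antisense gene Il1bos on the opposite strand, and since the sources used here do not state whether strand was used in counting, reads of these pairs cannot be assigned with certainty.

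The antagonist gene Il1rn gave the steadiest change of the 10. It measured 114, 92.8 and 94.5 CPM in Casp8-/- Tnfr1-/- livers, from 3726, 2697 and 1658 reads, against 18.8, 15.47 and 13.3 CPM in WT. The Tnfr1-/- livers held 21.3 and 15.6 CPM and the Casp8-/- Mlkl-/- livers 31.9, 13.6 and 18.5 CPM. The lowest Casp8-/- Tnfr1-/- liver was thus well above the highest of the 8 others. The rise was 6.33-fold against WT (log2 fold change 2.66 ± 0.30, adjusted p = 0.00111), 5.44-fold against Tnfr1-/- (2.44 ± 0.35, adjusted p = 0.00709) and 4.72-fold against Casp8-/- Mlkl-/- livers (2.24 ± 0.30, adjusted p = 0.00596). With each of the 11 livers left out in turn, the log2 fold change against WT stayed between 2.56 and 2.81 and the gene remained called, and likewise against Casp8-/- Mlkl-/- livers at 2.01 to 2.65. Against Tnfr1-/- livers the call was lost without either Tnfr1-/- replicate, which leaves 1 liver in that group (adjusted p = 0.105 without replicate 1 and 0.175 without replicate 2).

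The 2 IL-1 receptor genes both rose against WT but on different scales. Il1r1, the signalling receptor, was the more evenly expressed, at 43.1, 47.7 and 47.4 CPM in WT, 53.3 and 53.6 CPM in Tnfr1-/-, 88.3, 57.3 and 59.9 CPM in Casp8-/- Mlkl-/-, and 106, 104 and 182 CPM in Casp8-/- Tnfr1-/- livers. Each double mutant liver thus exceeded every liver with intact Casp8. The log2 fold change was 1.504 ± 0.243 against WT (adjusted p = 0.00729) and 1.29 ± 0.28 against Tnfr1-/- (adjusted p = 0.0463). Against Casp8-/- Mlkl-/- livers it was 0.93 ± 0.24 with adjusted p = 0.1, which did not pass. Without Casp8-/- Mlkl-/- replicate 1 it was 1.16 with adjusted p = 0.0376. The call against Tnfr1-/- was lost without any 1 of the 3 WT livers (adjusted p = 0.0823 to 0.0859), without Casp8-/- Mlkl-/- replicate 2 or 3 (0.0584 and 0.0681) and without Tnfr1-/- replicate 1 or 2 (0.451 and 0.414).

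Il1r2, the decoy receptor, had the largest fold change of the 10 and the widest spread. It measured 13.6, 15.9 and 274 CPM in Casp8-/- Tnfr1-/- livers, from 446, 461 and 4814 reads. In WT it measured 0.730, 0.293 and 0.355 CPM, in Tnfr1-/- 0.848 and 0.494 CPM, and in Casp8-/- Mlkl-/- livers 2.80, 0.697 and 0.764 CPM. Replicates 1 and 2 of the Casp8-/- Tnfr1-/- group were close to each other, and replicate 3 was 18.6 times their mean. The log2 fold change against WT was 7.76 ± 1.41 (adjusted p = 0.0121) with all livers and 4.99 (adjusted p = 0.00129) without replicate 3, so the size of the change, but not its direction, depends on that liver. Against Casp8-/- Mlkl-/- livers it was 6.17 ± 1.28 (adjusted p = 0.0449) with all livers and 3.40 (adjusted p = 0.0112) without replicate 3. Against Tnfr1-/- it was 7.20 ± 1.63 (adjusted p = 0.0547), and without replicate 3 it was 4.42 and passed (adjusted p = 0.00648). The call against WT was lost without WT replicate 1, 2 or 3 (adjusted p = 0.0597, 0.0763 and 0.0814). The call against Casp8-/- Mlkl-/- livers was lost when any 1 of the 8 WT, Tnfr1-/- and Casp8-/- Mlkl-/- livers was left out, with adjusted p of 0.0551 to 0.205. The antisense gene Gm16894 overlaps Il1r2, with the same uncertainty of strand.

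**Figure D2:**
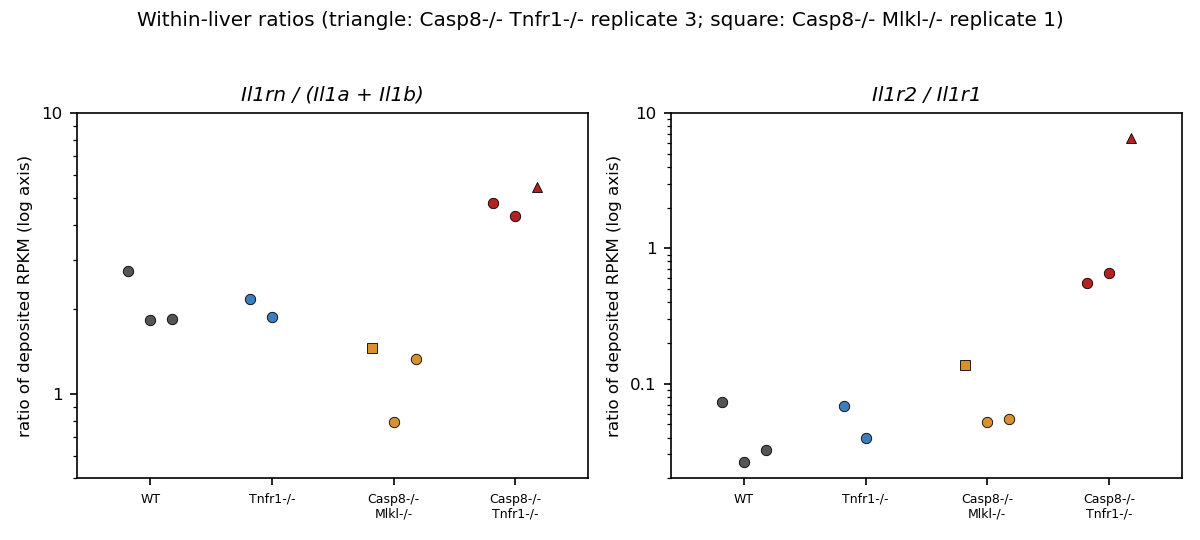
Ratios of deposited RPKM within each liver on log axes, Il1rn over the sum of Il1a and Il1b on the left and Il1r2 over Il1r1 on the right, with a point per liver. Both ratios are highest in the 3 Casp8-/- Tnfr1-/- livers, at 4.28 to 5.45 on the left and 0.551 to 6.50 on the right.

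Because RPKM is scaled by transcript length, the inhibitory and the activating genes of the IL-1 pair could be set against each other within a liver. Il1rn exceeded the sum of Il1a and Il1b 4.78, 4.28 and 5.45 times in Casp8-/- Tnfr1-/- livers, against 2.73, 1.83 and 1.85 times in WT and 2.17 and 1.88 times in Tnfr1-/- livers. In Casp8-/- Mlkl-/- livers, where the ligand genes stood higher and Il1rn did not, the ratio was 1.46, 0.793 and 1.33. All 3 Casp8-/- Tnfr1-/- livers were above and all 3 Casp8-/- Mlkl-/- livers below the WT and Tnfr1-/- livers, which overlapped each other. Il1r2 to Il1r1 gave 0.551, 0.659 and 6.50 in Casp8-/- Tnfr1-/- livers. The other ratios were 0.0265 to 0.0730 for WT, 0.0397 and 0.0685 for Tnfr1-/-, and 0.0525 to 0.137 for Casp8-/- Mlkl-/- livers. The decoy transcript outnumbered the signalling receptor in replicate 3 of the Casp8-/- Tnfr1-/- group alone. These ratios were formed with the values known, were not tested, and compare RNA, not protein.

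Il1a and Il1b lie on mouse chromosome 2 beside each other on the minus strand (chr2:129299610-129309972 and chr2:129364570-129371139), and Il1rn lies on the same chromosome on the plus strand (chr2:24336853-24351494), all in GRCm38 with GENCODE release M21. Il1r2 and Il1r1 are likewise neighbours on chromosome 1 (chr1:40074079-40125231 and chr1:40225080-40317257). The stretches just before the RefSeq starts (GRCm38.p6) of the ligand and antagonist genes are shown because Il1b and Il1a, adjacent genes for ligands of the same receptor, differed in their change against WT (19.1-fold and 2.05-fold), and because Il1rn, the antagonist gene, was the one called in all 3 comparisons. Letters run 5′ to 3′ in the direction of the gene, the last base is the one before the start or before the first annotated exon base, and capitals mark an AP-1 match.
Il1b, chr2:129371140-129371389, minus strand: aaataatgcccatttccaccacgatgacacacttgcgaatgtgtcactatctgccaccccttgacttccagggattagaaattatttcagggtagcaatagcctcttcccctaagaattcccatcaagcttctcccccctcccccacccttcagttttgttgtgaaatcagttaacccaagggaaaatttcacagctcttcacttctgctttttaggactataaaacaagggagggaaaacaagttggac
Il1a, chr2:129309973-129310222, minus strand: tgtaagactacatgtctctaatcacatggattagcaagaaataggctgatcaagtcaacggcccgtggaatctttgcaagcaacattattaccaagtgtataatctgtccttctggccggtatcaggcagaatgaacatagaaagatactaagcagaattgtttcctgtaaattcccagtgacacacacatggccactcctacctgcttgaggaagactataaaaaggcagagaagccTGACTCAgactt
Il1rn, chr2:24336610-24336852, plus strand: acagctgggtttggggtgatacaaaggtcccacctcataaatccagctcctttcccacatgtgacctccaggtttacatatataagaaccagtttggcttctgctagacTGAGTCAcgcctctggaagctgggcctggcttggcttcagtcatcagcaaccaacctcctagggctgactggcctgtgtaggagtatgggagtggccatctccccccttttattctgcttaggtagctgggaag

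Windows of 250 bases before each RefSeq start were searched on both strands for STAT (TTCNNNGAA), C/EBP (TTGCNNAA), AP-1 (TGANTCA) and the NF-kB decamer. RefSeq gave 12 windows for 9 of the 10 genes. No match overlapped another within a window. The AP-1 letters were found for Il1a, for the first of the 3 starts of Il1rn (both capitals above) and for Il6, while the window of Il1b held none of the 4 motifs. The window of Il6 also held a C/EBP and an NF-kB match, and that of Socs3 held the STAT letters at positions -154 to -146 from its start (TTCTTAGAA). Over the 9 genes, STAT was found in 2, C/EBP in 2, AP-1 in 3 and NF-kB in 2, where these letters occur in 7.02%, 9.56%, 6.75% and 7.25% of all 32851 RefSeq windows of this length. The first counts are of genes with a match in any of their windows and the shares are of single windows, so the units differ. The STAT match of Il1r2 overlapped annotated exon bases, and all 250 bases of the Osmr window lay in annotated exons. A match is a description of letters and does not show that a factor binds there.

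Among the IL-6 family members, the ligand genes Il6 and Osm differed in abundance and neither passed the threshold. Il6 was rare throughout, with 11, 3 and 0 reads in WT, 14 and 11 in Tnfr1-/-, 3, 8 and 7 in Casp8-/- Mlkl-/- and 21, 18 and 25 in Casp8-/- Tnfr1-/- livers. A count of 0 in WT replicate 3 allows up to 0.118 CPM (3 reads, counting error only). In CPM the Casp8-/- Tnfr1-/- livers held 0.641, 0.620 and 1.42 and every other liver 0.422 or less. The log2 fold change against WT was 2.23 ± 0.83 with adjusted p = 0.139, so a difference in Il6 was not established at this depth. Without Casp8-/- Tnfr1-/- replicate 3 it was 1.75 with adjusted p = 0.205.

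Osm was expressed at 3.76, 3.48 and 2.41 CPM in WT, 3.50 and 2.85 CPM in Tnfr1-/- and 3.49, 3.31 and 4.28 CPM in Casp8-/- Mlkl-/- livers. The Casp8-/- Tnfr1-/- livers held 5.95, 7.54 and 135 CPM, so replicate 3 was 20.0 times the mean of the other 2. With all livers the log2 fold change against WT was 3.94 ± 1.06 and did not pass (adjusted p = 0.0603). Without replicate 3 it was smaller, 1.07, and passed (adjusted p = 0.0196). The same held against Tnfr1-/- (3.95 ± 1.26, adjusted p = 0.162; without replicate 3, 1.08 and 0.0441). Against Casp8-/- Mlkl-/- livers it was 3.74 ± 1.05 (adjusted p = 0.13) and without replicate 3 it was 0.87 (adjusted p = 0.0902). Leaving out either of the other 2 Casp8-/- Tnfr1-/- livers also brought the difference from WT past the threshold (adjusted p = 0.0204 and 0.0261).

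The 2 receptor genes of this family went apart. Osmr, the subunit that gives the gp130 complex its affinity for oncostatin M, measured 9.49, 8.05 and 45.5 CPM in Casp8-/- Tnfr1-/- livers, 1.57, 1.38 and 1.14 CPM in WT, 1.997 and 1.94 CPM in Tnfr1-/-, and 4.62, 1.31 and 1.57 CPM in Casp8-/- Mlkl-/- livers. Osmr differed from WT by a log2 fold change of 3.93 ± 0.75 (adjusted p = 0.0157) and of 2.68 without replicate 3 (adjusted p = 0.00727). Against Tnfr1-/- livers it was 3.41 ± 0.86 (adjusted p = 0.0833) and against Casp8-/- Mlkl-/- livers 3.07 ± 0.72 (adjusted p = 0.0718), neither of which passed although the groups did not overlap. Without replicate 3 the difference from Tnfr1-/- livers was 2.15 and passed (adjusted p = 0.0458), and that from Casp8-/- Mlkl-/- livers was 1.83 and did not (adjusted p = 0.069). Without Casp8-/- Mlkl-/- replicate 1 both passed (3.41 with adjusted p = 0.0453 and 3.86 with adjusted p = 0.0378). The call against WT was lost without WT replicate 1, 2 or 3 (adjusted p = 0.0729, 0.0826 and 0.0951).

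Il6ra, which encodes the IL-6 binding subunit, gave no call in any comparison with all livers. It measured 35.6, 39.9 and 34.9 CPM in Casp8-/- Tnfr1-/-, 31.2, 23.8 and 20.4 CPM in WT, 32.6 and 31.7 CPM in Tnfr1-/- and 83.0, 24.3 and 29.8 CPM in Casp8-/- Mlkl-/- livers. The highest value was that of Casp8-/- Mlkl-/- replicate 1, the liver with the most hepatocyte marker RNA, and the part of those cells in it was not tested. Against WT the log2 fold change was 0.55 ± 0.40 (adjusted p = 0.398), and against Casp8-/- Mlkl-/- livers -0.31 ± 0.39 (adjusted p = 0.706), a sign that turned to 0.45 without that liver. Without that liver and Casp8-/- Tnfr1-/- replicate 3 together, Il6ra was called higher against WT (0.60, adjusted p = 0.00453) and against Casp8-/- Mlkl-/- livers (0.50, adjusted p = 0.0374). The antisense gene Gm42809 overlaps Il6ra.

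Socs3, the feedback inhibitor, measured 41.9, 46.8 and 137 CPM in Casp8-/- Tnfr1-/- livers against 22.5, 21.5 and 19.8 CPM in WT, 22.8 and 23.2 CPM in Tnfr1-/-, and 26.3, 21.4 and 24.001 CPM in Casp8-/- Mlkl-/- livers. The 8 other livers lay in a narrow band and each Casp8-/- Tnfr1-/- liver above it. The log2 fold change against WT was 1.82 ± 0.39 (adjusted p = 0.0266). Without replicate 3 it was 1.06 with a smaller adjusted p of 0.000724. Against Tnfr1-/- and Casp8-/- Mlkl-/- livers the values were 1.71 ± 0.45 (adjusted p = 0.0971) and 1.65 ± 0.39 (adjusted p = 0.0756), and without replicate 3 they were 0.95 and 0.90 and both passed (adjusted p = 0.00361 and 0.00401). The call against WT was lost without WT replicate 1, 2 or 3 (adjusted p = 0.0982, 0.108 and 0.125) and without Tnfr1-/- replicate 1 (0.0532).

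**Figure D3:**
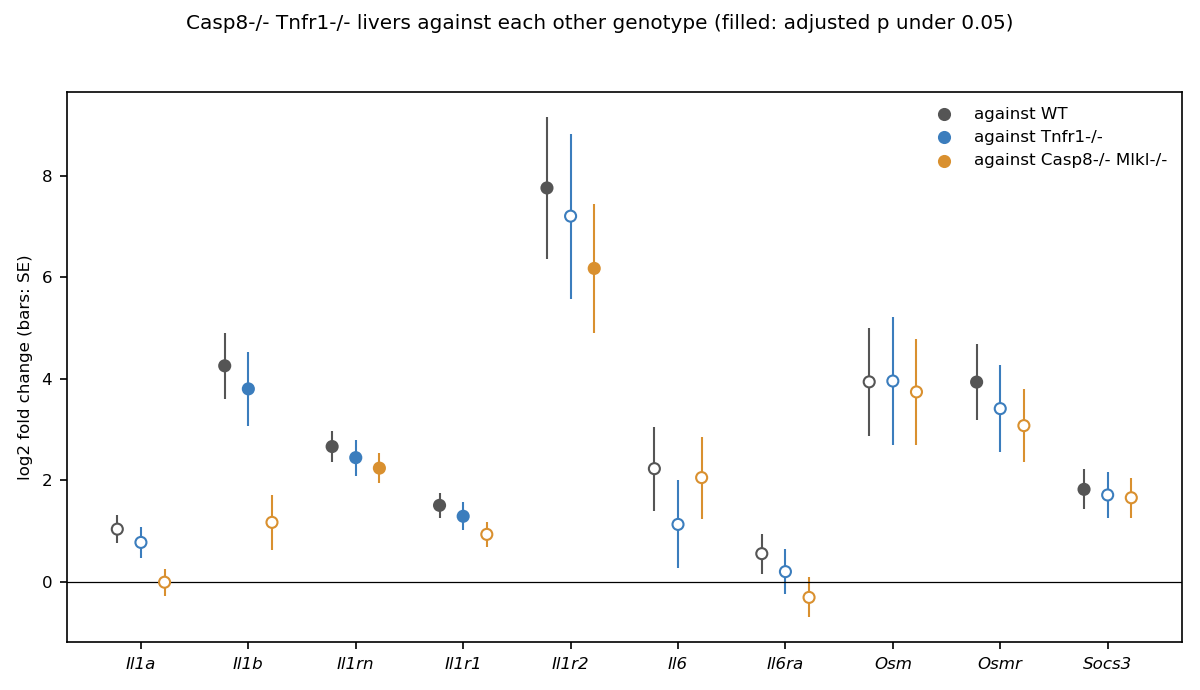
Log2 fold change (points) with its SE (bars) of the 10 genes in Casp8-/- Tnfr1-/- livers against WT, Tnfr1-/- and Casp8-/- Mlkl-/- livers, filled where the adjusted p is under 0.05. Il1rn is filled in all 3 comparisons, and Il1a and Il6ra lie near 0 against Casp8-/- Mlkl-/- livers.

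**Figure D4:**
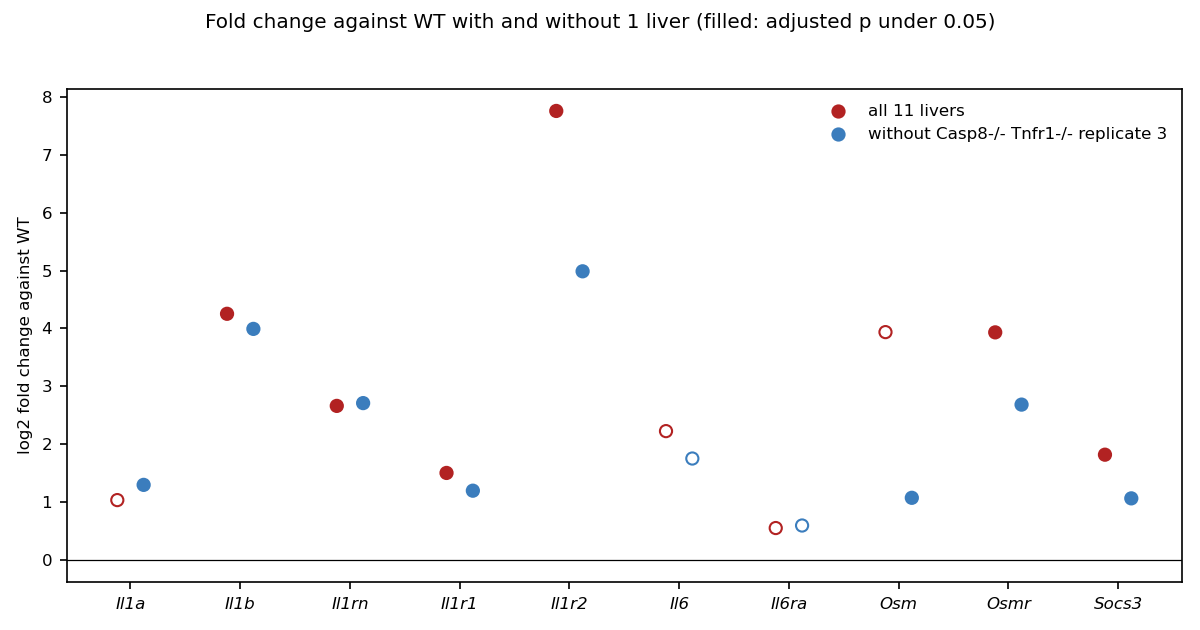
Log2 fold change of the 10 genes against WT with all 11 livers and without Casp8-/- Tnfr1-/- replicate 3, filled where the adjusted p is under 0.05. Il1r2 moves from 7.76 to 4.99 and Osm from 3.94 to 1.07, while Il1rn stays at 2.66 and 2.71.

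In CPM, the 10 genes therefore fell into sets by how replicate 3 compared with the mean of the other 2 Casp8-/- Tnfr1-/- livers. Osm and Il1r2 were 20.0 and 18.6 times that mean, Osmr 5.19 times and Socs3 3.09 times. Il6, Il1r1 and Il1b lay at 2.26, 1.73 and 1.63 times. Il6ra and Il1rn were at 0.925 and 0.915 times, and Il1a at 0.507 times. Between replicates 1 and 2 the ratios ran from 0.789 for Osm to 1.24 for Il1b. The sets depend on the scaling, since the TMM factor was 0.758 in replicate 3 against 1.07 and 1.09 in replicates 1 and 2. In deposited RPKM, replicate 3 held Il1rn at 20.2 against 35.9 and 30.0, and Il6ra at 2.34 against 3.53 and 4.04. Il1b stood at 1.80 against 1.81 and 1.49, while Osm was still far higher in replicate 3, at 34.4 against 2.24 and 2.90.

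Per transcript length, the order of the 10 genes changed between genotypes. In WT livers the mean deposited RPKM fell from Socs3 (7.04) and Il1r1 (6.36) through Il1rn (4.93), Il6ra (2.45), Il1a (2.24) and Osm (1.19) to Il1r2 (0.272), Osmr (0.210), Il1b (0.0987) and Il6 (0.0630). In Casp8-/- Tnfr1-/- livers Il1rn was second in the mean at 28.7, with a range of 20.2 to 35.9. The highest mean was that of Il1r2 at 43.3, but it spanned 8.20 to 111.9, so its place above Il1rn rests on replicate 3. Il6 remained the lowest at 0.263, below Il1b at 1.70.

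Between the other genotypes none of the 10 genes passed the threshold. In Casp8-/- Mlkl-/- against WT livers edgeR called 0 of the 10, beside 0.0058% of all genes called higher and 0% called lower, while 3 (Il1a, Il1b and Il1r1) had an unadjusted p under 0.05. DESeq2 called 2 of them higher, limma-voom 0, and limma-voom with a quality weight per library 3, where they called 0.467%, 0.0058% and 3.2% of all genes higher. The log2 fold changes were 1.05 ± 0.27 for Il1a (adjusted p = 0.68), 3.09 ± 0.64 for Il1b (adjusted p = 0.35) and 0.57 ± 0.24 for Il1r1 (adjusted p = 0.875). In these 3 genes every Casp8-/- Mlkl-/- liver lay above all WT and Tnfr1-/- livers, a pattern seen in 5.61% of all genes, and none of the 10 showed the opposite pattern, which 3.03% of all genes did. Summed macrophage markers were higher in the same 3 livers, at 621 to 1398 CPM against 439 to 559 CPM in WT and Tnfr1-/- livers, and so were summed endothelial markers, at 479 to 630 CPM against 407 to 468 CPM. None of the 12 macrophage and 8 endothelial genes was called in Casp8-/- Mlkl-/- against WT livers with all livers, where 0.0058% of all genes were called higher. Without Casp8-/- Tnfr1-/- replicate 3 and Casp8-/- Mlkl-/- replicate 1, 3 macrophage genes were called higher and 3 lower. Of the endothelial genes 1 was called higher and 0 lower, beside 3.23% of all genes called higher. The part of these cells in Il1a, Il1b and Il1r1 was not tested. Without Casp8-/- Tnfr1-/- replicate 3 and Casp8-/- Mlkl-/- replicate 1 together, edgeR called the same 3 genes higher, beside 3.23% of all genes, with log2 fold changes of 0.98 for Il1a (adjusted p = 0.00365), 2.12 for Il1b (0.0148) and 0.35 for Il1r1 (0.00999). The other 7 genes passed in neither fit, with Il1rn at 0.42 ± 0.29, Osm at 0.20 ± 0.98 and Socs3 at 0.17 ± 0.38 on the log2 scale with all livers.

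Il1b and Il1r1 were the 2 of the 10 genes in which all 6 livers without caspase-8 lay above all 5 livers with it, as did 3.47% of all genes, and 0 showed the reverse, as did 1.35% of all genes. For Il1b the lowest of the 6 stood at 0.552 CPM and the highest of the 5 at 0.246 CPM, and for Il1r1 these were 57.3 and 53.6 CPM. In Tnfr1-/- against WT livers edgeR called 0 of the 10, beside 0% of all genes in either direction, none had an unadjusted p under 0.05, and DESeq2 and limma-voom also called 0. With 2 Tnfr1-/- livers the intervals are wide, and the log2 fold changes ran from -0.02 ± 1.10 for Osm to 1.10 ± 0.91 for Il6.

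The rest of the pathway was read from 5 lists of genes. With all livers, 5.1% of all genes tested were called higher and 0.702% lower against WT. These shares were 2.05% and 0.122% against Tnfr1-/- livers, and 1.54% and 0.116% against Casp8-/- Mlkl-/- livers. Among other IL-1 family ligands and receptors, 4 of 10 tested genes rose in Casp8-/- Tnfr1-/- against WT livers and none fell, with 4 of the 14 listed genes too low to test. Il36g, an IL-36 ligand, stood at 4.09, 4.34 and 15.7 CPM against 0.0789 to 0.461 CPM in WT (log2 fold change 5.05 ± 0.99, adjusted p = 0.0173), and its receptor gene Il1rl2 at 9.79, 10.4 and 17.6 CPM against 5.37 to 6.34 CPM (1.12 ± 0.26, adjusted p = 0.0342). Both subunit genes of the IL-18 receptor rose as well: Il18rap by 2.45 ± 0.42 (adjusted p = 0.00918) and Il18r1 by 2.57 ± 0.62 (adjusted p = 0.0404) on the log2 scale. The median of the list was 1.11. None of the 10 passed against Tnfr1-/- or Casp8-/- Mlkl-/- livers, where Il36g gave 4.71 ± 1.14 (adjusted p = 0.0724) and 3.44 ± 0.89 (adjusted p = 0.1). Without replicate 3, 3 of the 10 were called higher and 1 lower against WT, where 7.28% of all genes were called higher. In the comparisons with Tnfr1-/- and Casp8-/- Mlkl-/- livers 1 was called higher in each, beside 4.46% and 2.83% of all genes.

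Of 12 genes of IL-1 receptor signalling, 3 rose and none fell, with a list median of 0.06. Myd88, the adaptor of the receptor, measured 47.5, 52.2 and 34.2 CPM against 23.6 to 24.2 CPM in WT (0.90 ± 0.16, adjusted p = 0.0111), and it also passed against Tnfr1-/- (0.97 ± 0.18, adjusted p = 0.0254) and Casp8-/- Mlkl-/- livers (0.76 ± 0.16, adjusted p = 0.0463). Irak4, the first kinase of the cascade, rose by 0.94 ± 0.17 (adjusted p = 0.013). Irak3, which encodes the inhibitory family member IRAK-M, rose by 1.48 ± 0.18 (adjusted p = 0.00167). Irak3 stood higher in every liver without caspase-8 than in any with it: it measured 11.4, 10.9 and 10.1 CPM in Casp8-/- Tnfr1-/- and 13.9, 10.95 and 9.67 CPM in Casp8-/- Mlkl-/- livers, against 3.69 to 4.24 CPM in the 5 livers with intact Casp8. For Casp8-/- Mlkl-/- against WT the log2 fold change of Irak3 was 1.57 ± 0.18 with adjusted p = 0.0521, which missed the threshold.

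Among 12 tested genes of the IL-6 family, 3 rose and none fell, with a list median of 1.05. Il6st, the gene of gp130, measured 139, 138 and 236 CPM against 47.0 to 58.6 CPM in WT (1.68 ± 0.31, adjusted p = 0.0139), and Casp8-/- Mlkl-/- replicate 1 held 132 CPM where the other livers of its group held 64.5 and 63.4 CPM. Il27 and Ebi3, which encode the 2 chains of IL-27, rose by 4.82 ± 1.22 (adjusted p = 0.0486) and 1.60 ± 0.35 (adjusted p = 0.0275) on the log2 scale. Il27 was rare, at 0.671, 0.585 and 6.10 CPM against 0.0384 to 0.168 CPM in WT. Of 10 genes of gp130 JAK-STAT signalling 2 rose, Stat3 by 0.99 ± 0.22 (adjusted p = 0.0303) and the phosphatase gene Ptpn6 by 1.12 ± 0.21 (adjusted p = 0.0126). With all livers no gene of these 2 lists passed against Tnfr1-/- or Casp8-/- Mlkl-/- livers. Without replicate 3, 2 IL-6 family and 2 gp130 signalling genes were called higher against WT, beside 7.28% of all genes. Against Tnfr1-/- livers 1 and 1 were called higher (4.46% of all genes), and against Casp8-/- Mlkl-/- livers 0 and 1 (2.83%). Without Casp8-/- Mlkl-/- replicate 1 as well, 2 and 3 were called higher against Tnfr1-/- livers, beside 13.9% of all genes, and 0 and 1 lower. The comparison with Casp8-/- Mlkl-/- livers then gave 4 and 3 higher, beside 12% of all genes, and 1 and 1 lower. The shares of all genes called lower in these fits are not given here.

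Of 18 tested STAT3 target and acute phase genes, 7 rose against WT and none fell, with a list median of 2.21. Of the 20 listed genes, Saa1 and Saa2 were too low to test, at 0.103 CPM or less in every liver. With all livers, the acute phase genes Hp, Hpx, Fga, Fgb, Fgg, Lbp, Itih3 and Itih4 were not called against WT (adjusted p = 0.0691 to 0.283). Saa3, an acute phase serum amyloid gene, measured 62.6, 72.3 and 184 CPM against 0.907 to 1.51 CPM in WT (6.48 ± 1.35, adjusted p = 0.0234). Lcn2, which encodes an iron-withholding protein, measured 1100, 1217 and 3250 CPM against 49.0 to 78.2 CPM (4.87 ± 0.78, adjusted p = 0.00687). Steap4, a metalloreductase gene, and Bcl3, an NF-kB cofactor gene, rose by 3.40 ± 0.49 (adjusted p = 0.00423) and 2.61 ± 0.34 (adjusted p = 0.00242). Lcn2, Steap4 and Bcl3 were also the 3 of the 18 called higher against Tnfr1-/- livers and against Casp8-/- Mlkl-/- livers. Without replicate 3, 8 of the 18 were called higher against WT, beside 7.28% of all genes. Without Casp8-/- Mlkl-/- replicate 1 as well, 17 of the 18 were called higher against WT, beside 17.8% of all genes. That fit gave 16 against Tnfr1-/- and 17 against Casp8-/- Mlkl-/- livers, beside 13.9% and 12%, and 0 lower in each. In Casp8-/- Mlkl-/- replicate 1 Saa3 stood at 31.2 CPM and Lcn2 at 267 CPM, where the other 2 livers of that group lay within 1.16 and 48.0 CPM.

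**Figure D5:**
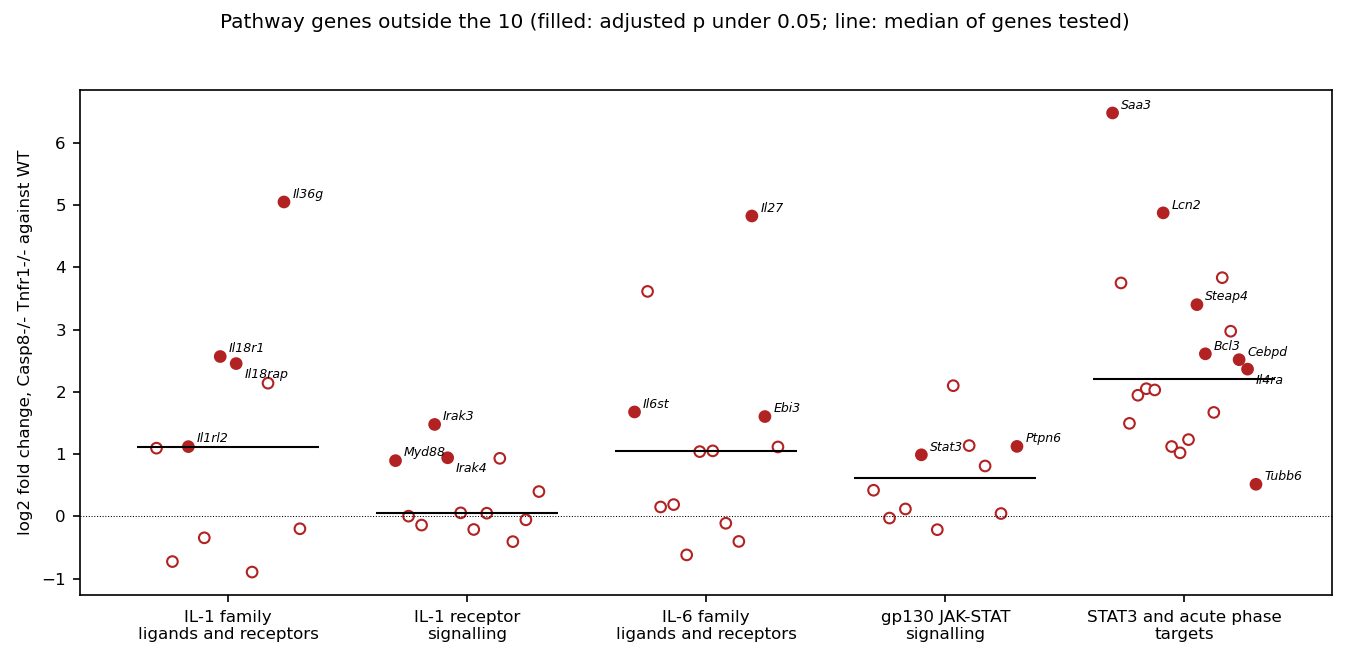
Log2 fold change of each tested gene of the 5 pathway lists in Casp8-/- Tnfr1-/- against WT livers, filled and named where the adjusted p is under 0.05, with a line at the median of each list. The medians run from 0.06 for IL-1 receptor signalling to 2.21 for STAT3 and acute phase targets. Without Casp8-/- Tnfr1-/- replicate 3 (not drawn) they were 0.66 for the IL-1 family and 0.02 for IL-1 receptor signalling. Those of the IL-6 family, gp130 signalling and STAT3 and acute phase targets were then 0.55, 0.21 and 1.27.

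Markers of other cells moved beside these genes. Granulocyte markers rose in Casp8-/- Tnfr1-/- livers: 8 of 12 neutrophil genes were called higher against WT and none lower, beside 5.1% and 0.702% of all genes. Against Tnfr1-/- livers 1 of the 12 was called higher and against Casp8-/- Mlkl-/- livers 0, beside 2.05% and 1.54% of all genes. The summed level of the 12 markers was 5417 to 15503 CPM, against 1147 to 1664 CPM in WT livers. The Tnfr1-/- livers summed to 1388 and 1419 CPM and the Casp8-/- Mlkl-/- livers to between 1342 and 3565 CPM. S100a9 and Ngp, the most abundant of them, rose by 3.53 ± 0.70 (adjusted p = 0.0182) and 3.27 ± 0.71 (adjusted p = 0.0277) on the log2 scale against WT, and no marker of the list was at 0 in any liver. Within the double mutants the same libraries stood highest in this sum and, in CPM, in Il1b and Il1r2: replicate 3 of Casp8-/- Tnfr1-/- and replicate 1 of Casp8-/- Mlkl-/-. By RPKM, Il1b stood at 1.81 in Casp8-/- Tnfr1-/- replicate 1 and at 1.80 in replicate 3. Il1rn and Osm each shared the highest library with the sum in one group and not in the other. Il1rn was highest in replicate 1 of both groups (114 and 31.9 CPM), as the sum was in Casp8-/- Mlkl-/- livers alone. Osm was highest in replicate 3 of both (135 and 4.28 CPM), as the sum was in Casp8-/- Tnfr1-/- livers alone. Neutrophils are known to express Il1b, Il1rn, Il1r2 and Osm, and the part of these cells in the values above was not tested. The monocyte sum was 227 to 264 CPM against 79.4 to 138 CPM in WT, with 2 of 6 genes called higher. The macrophage sum was 392 to 470 CPM against 439 to 559 CPM in WT, with 1 of 12 genes called higher and 2 lower. The hepatic mesenchyme sum was 1133 to 4624 CPM against 966 to 1283 CPM in WT, the highest again in replicate 3, and none of its 8 genes passed. Without replicate 3, 7.28% of all genes were called higher against WT. The marker genes called higher were then 10 of 12 for neutrophils, 4 of 6 for monocytes, 1 of 12 for macrophages, with 0 lower, and 2 of 8 for mesenchyme. For the neutrophil genes they were 5 of 12 against Tnfr1-/- and 2 of 12 against Casp8-/- Mlkl-/- livers, beside 4.46% and 2.83% of all genes. Without Casp8-/- Mlkl-/- replicate 1 as well they were 12 and 11, beside 13.9% and 12% of all genes. Of 10 erythroid and 10 hepatocyte genes, 0 were called against WT with all livers. Without both libraries 10 erythroid and 5 hepatocyte genes were called lower and 0 higher. Of the 12 macrophage genes 6 were then lower and 2 higher. In that fit 17.8% of all genes were called higher, and the share called lower is not given here. The part of these cells and of the muscle RNA of replicate 3 was not tested.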

How the data were processed

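Total RNA of E15.5 fetal livers was sequenced as single-end 50 base reads per the labels, and the authors aligned them to GRCm38 with GSNAP (version 2013-11-10). The deposited count column holds whole reads per gene, and the authors deposited RPKM values and a gene width beside it. The counting tool, annotation release and use of strand are not given in the sources used here, and labels and methods name different TruSeq kits. Genes were named from GENCODE M21 (52489 of 52636). Genes passing filterByExpr (minimum count 10) were scaled by TMM and fitted in edgeR 4.0.16 (glmQLFit, glmQLFTest; R 4.3.3) with 4 genotypes in 1 model. Adjusted p values are Benjamini-Hochberg, two-sided, threshold 0.05, over 17243 genes. edgeR was tested on simulated data first. Alternatives used DESeq2 1.42.0, limma 3.58.1, other filters and scalings, the replicate number, and fewer livers. The 10 genes, gene lists, ratios and motifs were chosen with earlier results of these data known. Named genes were all 10, the targeted genes, up to 4 called genes per pathway list with the largest change, and up to 2 abundant genes per marker list. Xist, overlapping genes and the acute phase genes not called were named after their values were seen. No pair of livers was alike within sampling noise (chi-square per degree of freedom at least 6.03). Read limits cover counting error only. RPKM served for ratios and orders of level, with no test.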

Additional observations from a re-analysis of the deposited data

How the results depend on the processing

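Il1b, Il1rn and Il1r1 were called higher against WT under all 21 alternatives, and Il1rn against Casp8-/- Mlkl-/- livers under 20 of 21. In Tnfr1-/- against WT livers none of the 10 was called under any alternative, and no gene of the 10 was called lower in any comparison or alternative. For calls in Casp8-/- Tnfr1-/- livers against WT, Tnfr1-/- and Casp8-/- Mlkl-/- livers, the counts were 6, 3 and 2. With only the compared genotypes in the fit they were 3, 1 and 0 (beside 2.8%, 0.316% and 0.0612% of all genes called higher in the same fit), and with the quality weights, an alternative chosen after seeing the data, 10, 8 and 7 (17.0%, 14.6% and 11%). No filter gave 6 against Tnfr1-/- and 5 against Casp8-/- Mlkl-/- livers (1.5% and 1.32%), DESeq2 5 and 4 (6.55% and 4.64%), and leaving out both low-TMM libraries 8 and 8 (13.9% and 12.0%). Against Casp8-/- Mlkl-/- livers, DESeq2's size factors and limma-voom gave 1 each (1.33% and 1.68%). In Casp8-/- Mlkl-/- against WT livers (0 calls) leaving out both libraries gave 3 (3.23%), the quality weights 3 (3.2%) and DESeq2 2 (0.467%). With 1 liver left out, the counts ranged from 3 to 8 against WT, 0 to 8 against Tnfr1-/-, 1 to 5 against Casp8-/- Mlkl-/- and 0 to 0 for Casp8-/- Mlkl-/- against WT; where this left 1 Tnfr1-/- liver, that liver was assumed to vary like the other groups. With the replicate number as a block they were 5 against WT, 1 against Tnfr1-/- and 1 against Casp8-/- Mlkl-/- livers (3.09%, 1.06% and 0.754%); same-numbered livers correlated at -0.297 to 0.275 in their deviations, so the numbers give no pairing. Signs turned only in values not called with all livers, and of the turned values 1 passed, Il6ra without both libraries (adjusted p = 0.0374): Il1a against Casp8-/- Mlkl-/- livers (0.0049 without hemoglobin genes, 0.010 with a mean of at least 10 counts, -0.17 to 0.25 with 1 liver left out, 0.33 without both libraries, 0.39 with the weights), Il6ra there (-0.60 to 0.45 with 1 liver left out, 0.50 without both, 0.38 with the weights), Osm in Tnfr1-/- against WT livers (0.30 with the block, 0.011 with limma-voom, -0.18 to 0.12 with 1 liver left out), Il6 in Casp8-/- Mlkl-/- against WT livers (-0.40 to 1.69 with 1 liver left out) and Il1rn in Tnfr1-/- against WT livers (-0.023 to 0.42 with 1 liver left out). DESeq2 gave no adjusted p for Il1r2 or Osm, so neither could be called there. The cause of these changes was not tested. With groups of 2 and 3 livers and few reads on Il6 and Il1b, small changes in these genes could not be detected.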
